A study of Glycine max with 21 samples.

Results

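The genes described here form an interval of soybean chromosome 3 in which several gene models had reads in some replicate libraries and almost none in others, whatever the treatment. The members are the gene models with an ID number of at least 5000 and under 16000 on chromosome 3 (written as Glyma03g followed by 5 digits) and at least 50 counts summed over the 21 libraries. They number 204 of the 62537 gene models in the table. The interval holds 523 gene models, of which 159 had no count in any library and 160 had 1 to 49 counts. The interval was chosen because on-off genes had been seen in it, so the states of its genes are given as a description, without a test.

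The 21 libraries are bulk RNA-Seq of roots of seedlings of the soybean cultivar Williams 82 at the first trifoliolate stage, with 3 libraries in each of 7 groups. The groups are dehydration (seedlings taken off their germination paper and left in air) for 1, 6 and 12 hr, salt (seedlings moved to a 100 mM NaCl solution) for 1, 6 and 12 hr, and an untreated control harvested at 0 hr. All 7 groups share the cultivar, the tissue and the growth chamber, and the control stands for 0 hr only. Whether a library holds RNA of a single plant or of several pooled plants is not stated in the sources used here. Library totals ran from 3752853 to 28177205 counts, with a median of 6956557, and the highest total was that of salt 1 hr replicate 1. Levels are given as CPM, the counts of a gene in a library after scaling to the library's effective size (its total corrected by a TMM factor). CPM are not corrected for gene length, so levels are compared between libraries and not between genes.

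Williams 82 was bred by repeated backcrossing of a Phytophthora resistance locus, Rps1k, into the cultivar Williams. Rps1k lies on chromosome 3, and single plants of Williams 82 are known to carry different parental segments at some places in the genome. Parental segments can differ in which genes they hold and in the sequence of the genes they share. Reads of a gene model are counted only where they align to the reference genome, itself sequenced from Williams 82. Here a read of 50 bp could differ from it by up to 4 mismatches and had to map to a single location. Gene model IDs of this annotation are numbered along each chromosome, so the ID number gives the order of the genes but not the distance between them. None of the members' IDs matched the RefSeq table, so the members are given by ID without names, and a role is given only for Glyma03g05220, from the study's list of transcription factors. For the same reason the labelled root tissue could not be checked against markers.

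Most members were measured in every library. A count was present in all 21 libraries for 144 of the 204 members, and 177 to 199 members had a count in any one library. The members together took 0.292% to 0.511% of the counts of a library, with a median of 0.343%. The level used below for each gene is its 3rd highest CPM over the 21 libraries, called its reference level. The median reference level was 10.4 CPM over the members and 14.9 CPM over all gene models with at least 50 counts. It reached 1 CPM in 190 members and 4 CPM in 137. At the count threshold, Glyma03g05740 with 50 counts was inside and Glyma03g05260 with 44 counts was outside. At the ends of the interval, Glyma03g05010 and Glyma03g15890 were the first and last members, and Glyma03g04990 and Glyma03g16200 were their neighbours outside.

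A library was called on for a gene at 0.33 of its reference level or more, and off at 0.1 of it or less. An on-off gene had a reference level of at least 4 CPM, at least 3 off libraries, and at least 2 groups that held both an on and an off library. By this rule 17 of 137 members (12.4%) were on-off, against 480 of 31247 genes over the whole table (1.54%). On the rest of chromosome 3, 25 of 1289 genes (1.94%) were on-off, and on the other numbered chromosomes the share lay at 1.96% or less. Chromosome 3 as a whole, with the members included, had 2.95%. Among the on-off genes, both states occurred in at least 6 of the 7 groups for 6 members (4.38% of the 137). Over the whole table this held for 15 on-off genes (0.048% of the 31247). Of the 9 such genes that are not members, 3 also lie on chromosome 3.

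The 17 on-off members were spread over the interval, from Glyma03g05010 to Glyma03g15050. Within a single group, both states were seen for 13 of the 17 in dehydration 1 hr, 10 in dehydration 6 hr, 11 in dehydration 12 hr, 2 in salt 1 hr, 11 in salt 6 hr, 8 in salt 12 hr and 8 in the control. The salt 1 hr group was thus the most uniform for these genes. The number of on-off members that were off in a library ranged from 2 (salt 1 hr replicate 3) to 11 (dehydration 1 hr replicate 1). Dehydration 12 hr replicate 1 had 10 off and dehydration 6 hr replicate 3 had 9. These counts differed between replicates of the same group, for instance 11, 7 and 4 in the libraries of dehydration 1 hr.

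**Figure D1:**
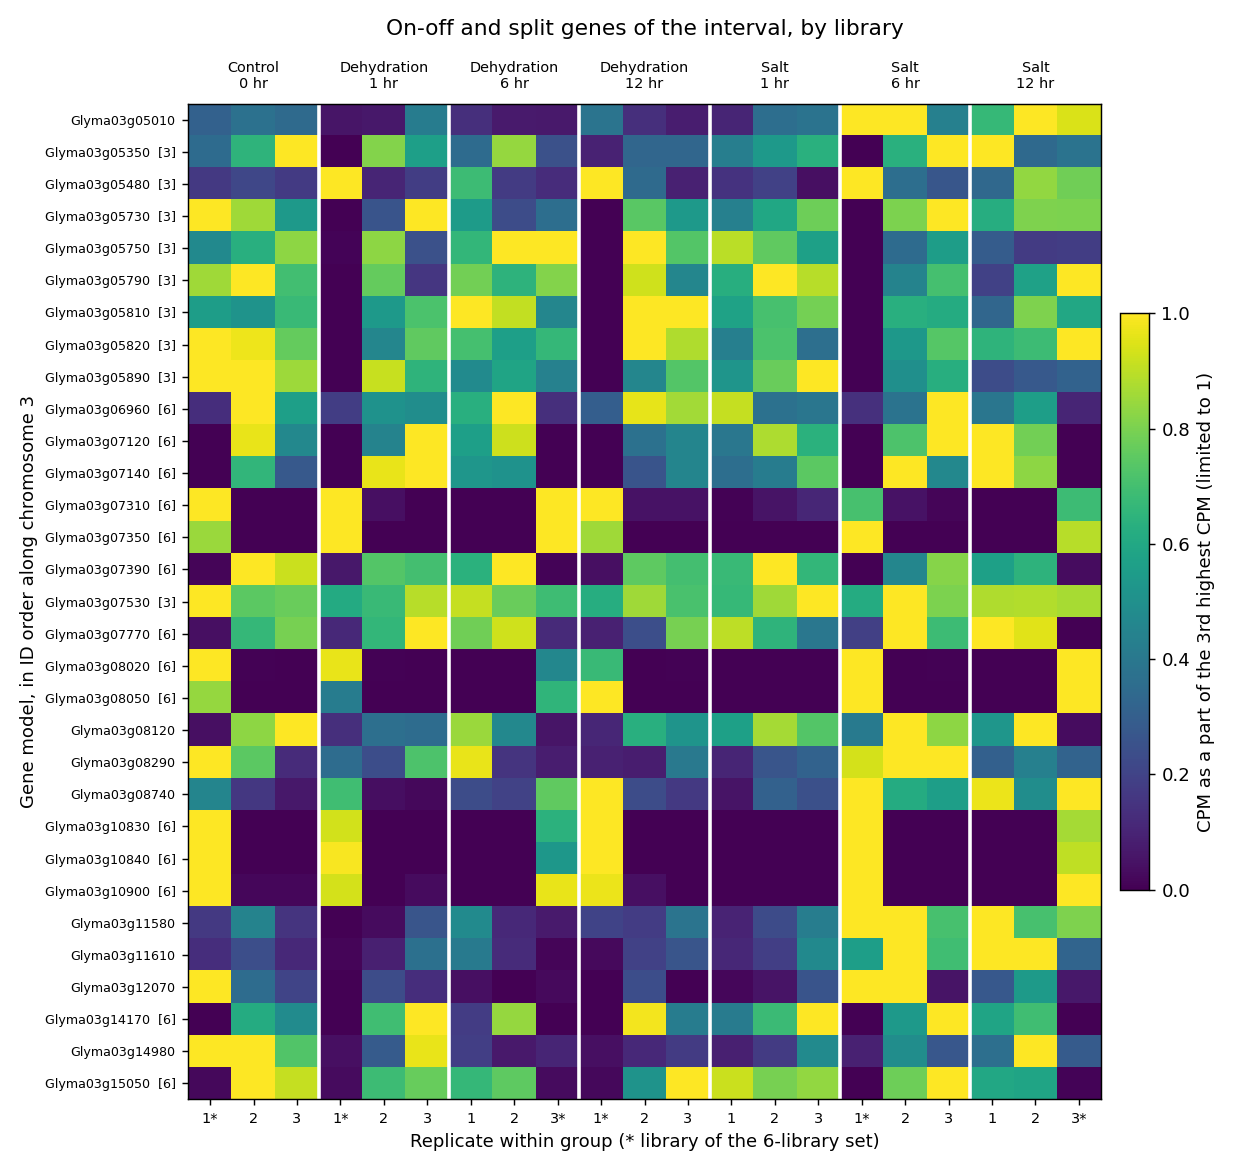
CPM of 31 members in each of the 21 libraries (columns, 3 replicates per group), shown as a part of the gene's 3rd highest CPM and limited to 1. Rows are the on-off and split members in ID order, marked [6] or [3] where the 6-library or the 3-library set splits them, and asterisks mark the 6 libraries, in which rows marked [6] are all darker or all brighter than in the other 15.

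The commonest division of the libraries set 6 of them apart from the other 15. The 6 were dehydration 1 hr replicate 1, dehydration 6 hr replicate 3, dehydration 12 hr replicate 1, salt 6 hr replicate 1, salt 12 hr replicate 3 and control replicate 1. The set therefore held 1 library of each group except salt 1 hr, which had none. By treatment it held 3 of 9 dehydration libraries, 2 of 9 salt libraries and 1 of 3 control libraries. By sequencing lane it held 1, 1 and 4 of the 7 libraries in lanes 2, 3 and 4. Library totals were 5177922 to 8876438 counts in the 6 and 3752853 to 28177205 counts in the other 15, so the depths overlapped.

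A gene was called split by a set of libraries when every library of the set was on the same side of all the others in CPM, with a reference level of at least 1 CPM. The set was taken from the on-off members themselves, so these counts describe the pattern and do not test it. The 6-library set split 14 of 190 members, against 16 of 38519 genes over the whole table (0.0415%). The other 2 genes were Glyma03g16290, the next such gene after the interval, and Glyma0070s00200, a gene model on an unplaced scaffold. Among the 14 members, 7 were low in the 6 libraries and 7 were high, and runs of low and of high genes followed each other along the interval. The first split member was Glyma03g06960 and the last was Glyma03g15050. Between them lie 119 members with a reference level of at least 1 CPM, so 105 of these were not split by the set.

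Glyma03g07120 was among the genes that were low in the 6 libraries. It had 0 counts in each of the 6, against 9 to 87 counts (2.34 to 10.6 CPM) in each of the other 15. In the 6 groups that hold a library of the set, the other replicates had 2.78 and 7.99 CPM in dehydration 1 hr, 3.53 and 5.77 CPM in dehydration 6 hr, 2.34 and 2.84 CPM in dehydration 12 hr, 4.49 and 6.24 CPM in salt 6 hr, 10.6 and 4.92 CPM in salt 12 hr, and 6.03 and 2.91 CPM in the control. All 3 libraries of salt 1 hr had reads, at 2.48, 5.47 and 3.99 CPM. Both states thus occurred within each of 6 groups.

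The neighbouring Glyma03g07140 had the same division at a lower level, with 0 counts in each of the 6 libraries and 4 to 43 counts in each of the others. Glyma03g14170, near the other end of the interval, had 0 counts in the 6 and 3 to 27 counts elsewhere. Glyma03g07390 had 0 to 4 counts in the 6 libraries and 21 to 230 counts (5.24 to 12.4 CPM) in the others. Each of these genes had reads in all 15 libraries outside the set.

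Glyma03g15050 had 0 to 3 counts in the 6 libraries, at most 0.391 CPM, and 27 to 376 counts elsewhere, at 7.02 to 14.7 CPM. Its 3 libraries of salt 1 hr were at 12.6, 10.9 and 11.5 CPM, and its control libraries at 0.275, 13.7 and 12.5 CPM. The 6 libraries thus lay apart from all others, and no library fell between. Glyma03g07770 had a smaller gap, with 0.616 CPM at most in the 6 libraries and 0.78 CPM at least in the others. Glyma03g06960 was never at 0 and had 1.07 to 3.13 CPM in the 6 libraries, against 3.93 to 11 CPM in the others. It was split by the set but not called on-off.

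The 7 members that were high in the 6 libraries showed the opposite picture. Glyma03g08020 had 193 to 930 counts in each of the 6, against 0 to 3 counts in each of the other 15. Its level was 52.6 CPM in dehydration 1 hr replicate 1, 25.1 CPM in dehydration 6 hr replicate 3, 36.7 CPM in dehydration 12 hr replicate 1, 191 CPM in salt 6 hr replicate 1, 79.4 CPM in salt 12 hr replicate 3 and 54.3 CPM in control replicate 1. None of the other 15 libraries passed 0.258 CPM, and 8 of them had no count. Even in salt 1 hr replicate 1, the deepest library, only 3 reads were counted.

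Glyma03g10900 had 32 to 67 counts in the 6 libraries (6.04 to 13.8 CPM) and 0 or 1 count elsewhere. Glyma03g07310 had 18 to 55 counts in the 6 libraries and 0 to 4 counts elsewhere. Glyma03g07350, Glyma03g08050, Glyma03g10830 and Glyma03g10840 had reads in all 6 and 0 counts in all 15 others. Their counts in the 6 were 11 to 18, 8 to 37, 19 to 33 and 14 to 29 in that order of genes. The last 2 have successive IDs and had closely similar counts in each library, 19 and 18 in dehydration 1 hr replicate 1 and 28 and 26 in control replicate 1. No count in a library allows up to 3 counts, which is 0.101 CPM in the deepest library and 0.78 CPM in the shallowest, and such limits cover counting error only.

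**Figure D2:**
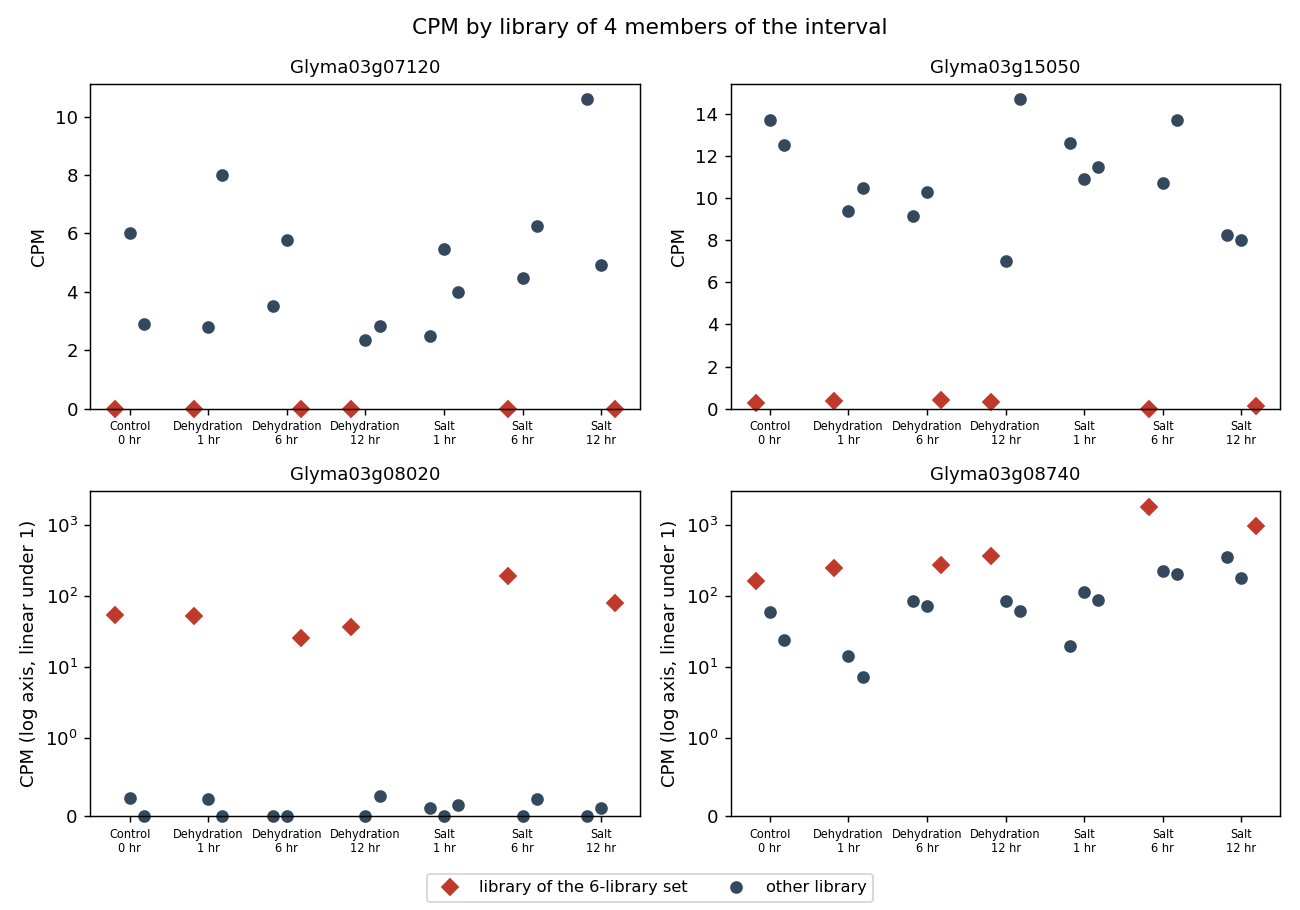
CPM of 4 members in each library, by group along the x axis, with the 6 libraries of the set as red diamonds and the other 15 as dark circles. Glyma03g07120 and Glyma03g15050 (linear axes) lie at or near 0 in the diamonds, Glyma03g08020 (log axis, linear under 1) is at 25.1 to 191 CPM in the diamonds and near 0 elsewhere, and Glyma03g08740 (same axis) has the diamond as the highest point of each of the 6 groups.

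The states were compared gene by gene over the libraries. Glyma03g07120, Glyma03g07390 and Glyma03g15050 had the same state in 21 of 21 libraries, and Glyma03g08020 and Glyma03g10900 the opposite state in 21 of 21. None of these 5 genes had a library between on and off. Glyma03g07310 was opposite in 20, with 1 library between. Outside the interval, the other 9 on-off genes with both states in at least 6 groups matched or opposed this vector in fewer libraries. The scaffold gene Glyma0070s00200 was opposite in 21 of 21, but its reference level of 2.47 CPM was too low for the on-off rule. The most alike of these 9 was Glyma07g17900 on chromosome 7, opposite in 17 of 21. On chromosome 3, Glyma03g24190 was opposite in 16, and Glyma03g24720 and Glyma03g24730 were the same in 16.

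Other members followed the 6-library set in part. At least 5 of the 6 libraries were among a gene's 6 lowest or 6 highest for 16 of 190 members (8.42%), against 36 of 38519 genes over the whole table (0.0935%). Beside the 14 split members these were Glyma03g08120 and Glyma03g08740. Within groups, the library of the set was the lowest of 3 or the highest of 3 in all 6 groups for 17 members (8.95%), against 51 genes of the whole table (0.132%). The 17 were the 14 split members, Glyma03g08120, Glyma03g08740 and Glyma03g06350. A gene split by the set meets both conditions by definition, so most of both member counts repeat the split members. Among genes not split, the condition within groups held for 3 members and for 32 genes that are not members. With split genes included, the genes that reached 1 CPM numbered 190 members and 38329 others. Glyma03g06350 had no off library, at 24.6 to 50.2 CPM over the 21.

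Glyma03g08740 had the highest mean CPM of the members and had reads in all 21 libraries, 4 of which were off by the rule above. Its level was 251, 14.1 and 7.1 CPM in the 3 libraries of dehydration 1 hr, with the library of the set first. In the same order, it was 273, 83.7 and 70.8 CPM in dehydration 6 hr, 361, 83.2 and 60.4 CPM in dehydration 12 hr, 1770, 222 and 203 CPM in salt 6 hr, 977, 350 and 177 CPM in salt 12 hr, and 164, 58.7 and 23.6 CPM in the control. The 3 libraries of salt 1 hr, none of them in the set, had 19.6, 112 and 87.9 CPM. The library of the set was the highest in each of the 6 groups, and the ranges over all groups overlapped because the salt 6 and 12 hr libraries were higher as a whole. Glyma03g08120 was off in dehydration 6 hr replicate 3, salt 12 hr replicate 3 and control replicate 1, with 0.391, 0.238 and 0.275 CPM, while salt 6 hr replicate 1 had 2.88 CPM.

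Near the start of the interval another division of the libraries was found. Dehydration 1 hr replicate 1, dehydration 12 hr replicate 1 and salt 6 hr replicate 1, which are 3 of the 6 libraries above, were set apart from the other 18. This 3-library set was also taken from the on-off members, so its counts describe the pattern and do not test it. It split 9 of 190 members, against 31 of 38519 genes over the whole table (0.0805%). Of the 31 genes, 19 lie outside chromosome 3. A smaller set of libraries is set apart by unrelated genes more often, so these counts cannot be compared directly with those of the 6-library set. The 9 members were Glyma03g05350, Glyma03g05730, Glyma03g05750, Glyma03g05790, Glyma03g05810, Glyma03g05820, Glyma03g05890 and Glyma03g07530, which were low in the 3 libraries, and Glyma03g05480, which was high.

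From Glyma03g05730 to Glyma03g05890, 6 of the 8 members with a reference level of at least 1 CPM were split by the 3-library set. Glyma03g05890 had 0 counts in each of the 3 and 38 to 549 counts in each of the other 18, at 8.23 to 39.5 CPM. Its control libraries had 39.5, 36.8 and 30.1 CPM, and its salt 12 hr libraries, at 8.23, 9.83 and 11.1 CPM, lay between on and off. Glyma03g05730 had 0 counts in the 3 and 22 to 322 counts elsewhere. Glyma03g05750 had 0 or 1 count in the 3 and 22 to 440 counts elsewhere. Glyma03g05790, Glyma03g05810 and Glyma03g05820 also had 0 counts in the 3, with at least 1, 3 and 5 counts in every other library.

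The direction was opposite for Glyma03g05480. It had 16.6 CPM in dehydration 1 hr replicate 1, 32.3 CPM in dehydration 12 hr replicate 1 and 41.3 CPM in salt 6 hr replicate 1, against 0.713 to 13.9 CPM in the other 18. Glyma03g07530, which lies among the genes of the 6-library set, was split by a narrow margin, with at most 10.4 CPM in the 3 libraries and at least 11.2 CPM in the others.

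The divisions followed the order of the genes, at the split genes only. Dehydration 6 hr replicate 3, salt 12 hr replicate 3 and control replicate 1 stood with the other 15 libraries at the split genes up to Glyma03g05890 and with the 6-library set at those from Glyma03g06960 on, except at Glyma03g07530. Between these IDs lie 19 members with a reference level of at least 1 CPM, and none of them was split by either set. Dehydration 1 hr replicate 1, dehydration 12 hr replicate 1 and salt 6 hr replicate 1 stood apart at the split genes from Glyma03g05350 to Glyma03g16290, but not at the genes between them that neither set splits. Before the interval, Glyma03g04200 was also split by these 3 libraries, with 0 to 2 counts in them and 2 to 68 counts in the others. Far past the interval, so were Glyma03g23950 and Glyma03g37730, by narrow margins. Glyma03g23950 had at least 17.7 CPM in the 3 and at most 17.6 CPM in the others. Glyma03g37730 had at most 0.943 CPM in the 3 and at least 0.992 CPM in the others. The remaining 15 libraries lay on the same side at each split gene, which follows from how a split gene is defined. Their levels were not all alike. At Glyma03g05480 they ranged from 0.713 CPM in salt 1 hr replicate 3 to 13.9 CPM in salt 12 hr replicate 2.

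Past the interval, the 6-library division was last seen at Glyma03g16290, which had 2 to 21 counts in each of the 6 libraries and 0 in all 15 others. From there to Glyma03g24190 lie 122 genes with a reference level of at least 1 CPM, and none was split by the 6-library set. A further set of 11 libraries, which contains all 6, split 5 genes from Glyma03g24190 to Glyma03g24730 and no other gene of the table (0.013% of 38519). This set was taken from on-off genes of chromosome 3 outside the interval, among them genes of these 5. The count is therefore a description and not a test. Glyma03g24190 had 52 to 455 counts in each of the 11 and 0 or 1 count in each of the other 10. Glyma03g24720 had 0 or 1 count in the 11 and 29 to 164 counts in the 10. All 7 groups, salt 1 hr included, held libraries of both kinds for these genes.

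**Figure D3:**
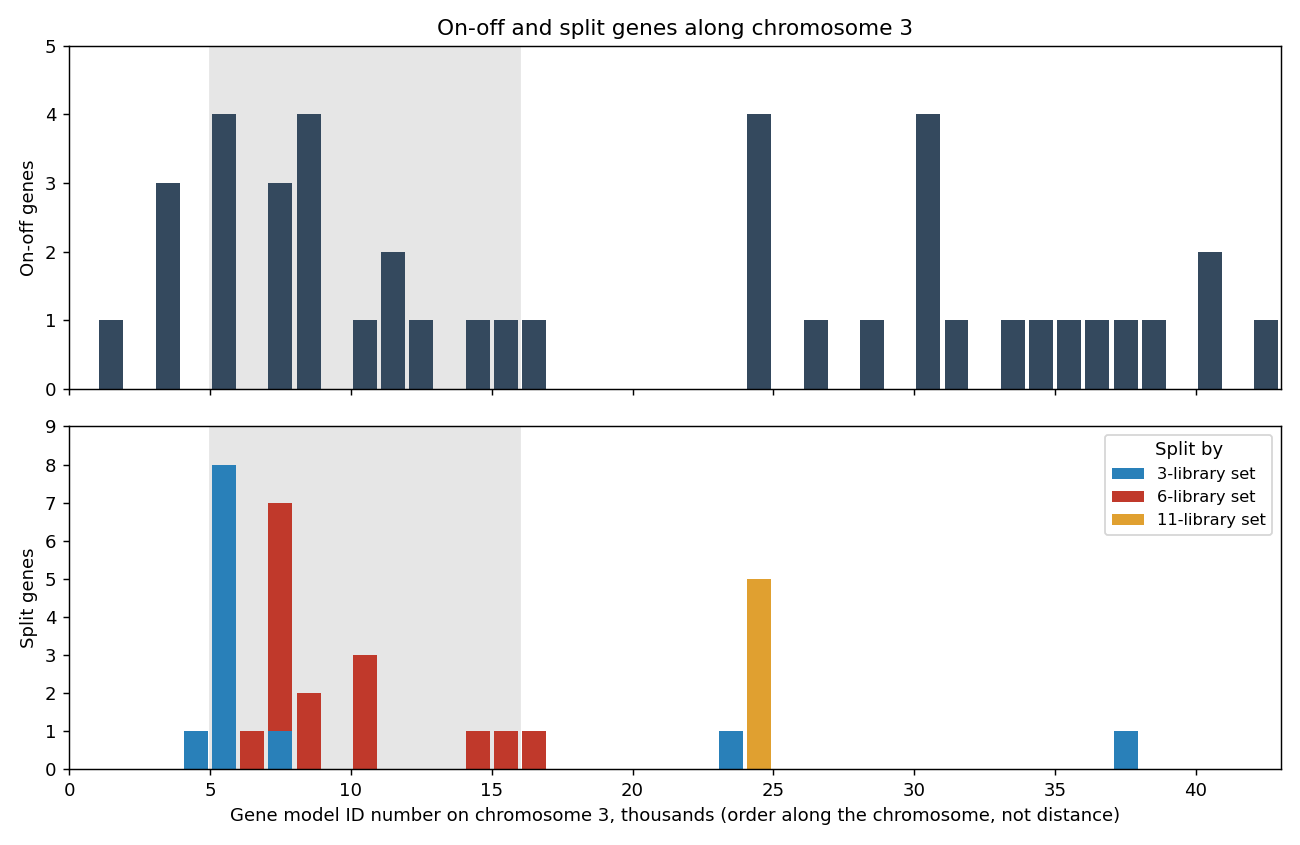
Number of on-off genes (upper panel) and of genes split by the 3-, 6- or 11-library set (lower panel) in windows of 1000 ID numbers along chromosome 3, with the interval shaded. Genes split by the 3-library set are most frequent at the start of the interval (8 in the window from 5000), those split by the 6-library set follow up to the window from 16000, and the 5 genes of the 11-library set lie in the window from 24000.

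The other on-off members were split by neither set. Glyma03g14980 ranged between 0.745 and 74.8 CPM, with 0.754, 5.13 and 17.2 CPM in dehydration 1 hr and 74.8, 17.8 and 13.0 CPM in the control. It was off in all 3 libraries of the 3-library set, at 0.754, 0.745 and 1.64 CPM, and in 2 further libraries. Of the 12 libraries with a called state in both genes, it had the same state as Glyma03g05730 in 11. Glyma03g11610 ranged between 0.377 and 65.2 CPM and had 16, 31.4 and 19.8 CPM in salt 6 hr, 65.2, 28.5 and 9.17 CPM in salt 12 hr, and 3.71, 6.83 and 3.25 CPM in the control. It was off in 4 libraries, of which 3 were dehydration 1 hr replicate 1, dehydration 6 hr replicate 3 and dehydration 12 hr replicate 1, at 0.377, 0.391 and 0.745 CPM. The fourth was dehydration 1 hr replicate 2, at 2.56 CPM.

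Glyma03g05010, the first member of the interval, was lowest in dehydration, with 0.566, 0.641 and 4.08 CPM at 1 hr, 1.32, 0.722 and 0.651 CPM at 6 hr and 3.73, 1.3 and 0.774 CPM at 12 hr. It had 17.7, 9.73 and 4.23 CPM in salt 6 hr and 3.02, 3.64 and 3.36 CPM in the control. Glyma03g11580 had 7.39, 10.5 and 5.23 CPM in salt 6 hr and 1.24, 3.3 and 1.12 CPM in the control, with 0 and 0.214 CPM in a pair of dehydration 1 hr libraries. Glyma03g08290 ranged between 0.52 and 11 CPM, with 7.7, 4.78 and 0.783 CPM in the control. Glyma03g12070 had no count in 4 libraries and reached 12.7 CPM in salt 6 hr replicate 1 and 9.07 CPM in control replicate 1. In these genes the off libraries still had some reads in most cases, and the levels formed a range, not 2 separate classes.

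The median spread between replicates was wider for the members than for all genes tested. The interval was chosen for genes that differ between replicates, so this in part restates that choice. The biological coefficient of variation of edgeR, which measures variation between replicates beyond counting error, had a median of 0.326 over the 181 members that passed the filter on low counts and of 0.254 over all 36691 genes tested. Of the 181 members, 21 were among the 349 genes tested with the highest values, about the top 1%. Glyma03g08020 had 2.59, Glyma03g10900 had 2.37 and Glyma03g07310 had 1.99. By comparison Glyma03g08270, a member with 123 to 364 CPM in the 21 libraries, had 0.202, and Glyma03g15020, with 48.9 to 161 CPM, had 0.204. Glyma03g14450 and Glyma03g05510, the other members among the 5 with the highest mean CPM, had 0.556 and 0.408.

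Differences between the treated groups and the control at 0 hr were tested for the same 181 members with edgeR's quasi-likelihood test. It was fitted over all genes and called at an adjusted p under 0.05 and a change of at least 2-fold. The members were not chosen for their response to treatment, but part of them were chosen for the spread that enters this test. In bulk RNA a change in level may reflect fewer cells of a type or less RNA per cell, and these cannot be told apart. The p-values rest on the spread between replicates, pooled over the 7 groups in 1 model. Of the members called in at least 1 of the 6 comparisons with the control, 1, Glyma03g14980, was on-off. All 6 comparisons share the same 3 control libraries. No untreated group was harvested later than 0 hr, so treatment and elapsed time cannot be told apart in these comparisons.

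After 1 hr of dehydration 4 members were called (2.21%), against 2.59% of all genes. Of these 3 rose (1.66%, against 1.15% of all genes) and 1 fell (0.552%, against 1.43%). Glyma03g07460 had 83.4, 115 and 79.3 CPM in dehydration, against 31.3, 29.5 and 26.2 CPM in the control, and rose by 1.67 on the log2 scale (SE 0.292, edgeR adjusted p = 0.00658). It kept this call under 15 of 15 alternative settings, while the calls of Glyma03g07680, Glyma03g12230 and Glyma03g05190, given next, held under 7, 6 and 7 of 15. Glyma03g07680 rose to 4.72, 3.63 and 6.39 CPM, against 0.137, 0.569 and 0.112 CPM in the control (log2 4.07, SE 0.948, edgeR adjusted p = 0.0266). Glyma03g12230 had 11.9, 10.3 and 8.34 CPM in dehydration, against 3.57, 4.89 and 2.35 CPM in the control (log2 1.49, SE 0.38, edgeR adjusted p = 0.0398). Glyma03g05190 fell to 6.04, 4.7 and 3.73 CPM, against 15.4, 13.2 and 14.4 CPM in the control (log2 -1.57, SE 0.396, edgeR adjusted p = 0.0378). The libraries of both groups did not overlap for any of the 4. The count of 4 went to 1 without dehydration replicate 2 or 3 or without control replicate 1 or 2, to 2 without dehydration replicate 1, and to 1 with lane as a term. Without control replicate 3, 2 members rose and 2 fell, of which only 1 was among the 4 above. Over all genes tested, the fit with lane called 87.

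At 6 hr of dehydration 3 members were called (1.66%), against 2.03% of all genes. All 3 fell, where 1.59% of all genes fell and 0.442% rose. Glyma03g14210 fell to 18.5, 16.6 and 18.4 CPM, against 63.0, 85.6 and 48.2 CPM in the control (log2 -1.88, SE 0.296, edgeR adjusted p = 0.00228), and kept the call under 15 of 15 alternatives. Glyma03g05600 fell to 8.93, 8.78 and 5.86 CPM, against 29.8, 19.2 and 13.8 CPM in the control (log2 -1.41, SE 0.359, edgeR adjusted p = 0.0459). The on-off member Glyma03g14980 fell to 3.31, 1.2 and 1.82 CPM, against 74.8, 17.8 and 13.0 CPM in the control (log2 -4.03, SE 1.02, edgeR adjusted p = 0.0442). The calls of Glyma03g05600 and Glyma03g14980 held under 3 and 4 of 15 alternatives. The count went to 1 without dehydration replicate 2 or 3, without control replicate 1, or with lane as a term. Over all genes tested, the fit with lane called 319.

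At 12 hr of dehydration 2 members were called (1.1%), against 2.01% of all genes. Both fell, where 1.62% of all genes fell and 0.392% rose, and both were among those called at 6 hr. Glyma03g14210 fell to 29.5, 24.7 and 25.3 CPM (log2 -1.30, SE 0.293, edgeR adjusted p = 0.0235), below its 3 control libraries. Glyma03g14980 fell to 0.745, 2.08 and 3.1 CPM (log2 -4.23, SE 1.09, edgeR adjusted p = 0.0496). These calls held under 10 and 4 of 15 alternatives. The count went to 0 without dehydration replicate 1, 2 or 3 or without control replicate 1 or 2 (edgeR, 12 to 21 members at an unadjusted p under 0.05), and to 1 with lane as a term. Over all genes tested, the fit with lane called 531. DESeq2 called 4 members with all libraries. Over the members the median log2 change was 0.02, beside 0.01 over all genes.

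After 1 hr of salt 4 members were called (2.21%), against 1.6% of all genes. Of these 2 rose, against 0.867% of all genes, and 2 fell, against 0.73%. Glyma03g05210 fell to 45.3, 53.6 and 39.8 CPM, against 111, 108 and 83.7 CPM in the control (log2 -1.12, SE 0.18, edgeR adjusted p = 0.00555). Glyma03g05190 fell to 3.92, 4.07 and 6.84 CPM, against 15.4, 13.2 and 14.4 CPM (log2 -1.55, SE 0.383, edgeR adjusted p = 0.0456). Glyma03g12230 rose to 6.84, 10.5 and 13.5 CPM, against 3.57, 4.89 and 2.35 CPM in the control (log2 1.49, SE 0.374, edgeR adjusted p = 0.0486). Glyma03g07680 had 30, 19 and 89 counts in salt, against 1, 5 and 1 in the control, and rose by 4.17 on the log2 scale (SE 0.937, edgeR adjusted p = 0.0312). The calls held under 13 of 15 alternatives for Glyma03g05210, 2 of 15 for Glyma03g05190, 5 of 15 for Glyma03g12230 and 8 of 14 for Glyma03g07680. The count went to 1 without salt replicate 3 or control replicate 1 or 2, and to 2 without salt replicate 2 or control replicate 3. All salt 1 hr and salt 6 hr libraries were run in lane 2, which held no control library. Lane 2 was linked to the lanes of the controls only through the salt 12 hr libraries, which had 1 in each lane. With lane as a term 0 members were called (edgeR, 16 at an unadjusted p under 0.05, and DESeq2 without that term called 7). Over all genes tested, the fit with lane also called 0, so the loss was not particular to the members.

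At 6 hr of salt 14 members were called (7.73%), against 9.66% of all genes. Of these 13 rose (7.18%, against 6.49% of all genes) and 1 fell (0.552%, against 3.16%). Glyma03g15800 had 14.6, 9.48 and 2.29 CPM in salt, against 0.137, 0 and 0 CPM in the control. Its summed counts were 141 and 1, a ratio per effective library size of 154 with an exact 95% interval of 27.3 to 6140 that covers counting error only (log2 7.26, SE 1.37, edgeR adjusted p = 0.00305). Glyma03g12230 rose to 18.3, 14.2 and 7.38 CPM, against 3.57, 4.89 and 2.35 CPM in the control (log2 1.86, SE 0.379, edgeR adjusted p = 0.00466). Glyma03g06810 rose to 22.2, 21.5 and 10.8 CPM, against 6.6, 6.15 and 7.83 CPM in the control (log2 1.38, SE 0.291, edgeR adjusted p = 0.00567). Glyma03g14210 fell to 17.0, 37.4 and 24.0 CPM, against 63.0, 85.6 and 48.2 CPM in the control (log2 -1.33, SE 0.292, edgeR adjusted p = 0.00715). It is the only member called in both dehydration 6 hr and salt 6 hr. The calls of the first 3 genes held under 14 of 15 alternatives each, and that of Glyma03g14210 under 13 of 15.

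For Glyma03g09080 and Glyma03g07300 the salt 6 hr and control libraries overlapped. Glyma03g09080 had 36.1, 23.7 and 9.39 CPM in salt, against 4.81, 10.9 and 5.82 CPM in the control (log2 1.66, SE 0.507, edgeR adjusted p = 0.0391). Glyma03g07300 had 150, 13 and 0 counts in salt and 0 in each control library, so that its level was at least 59.5-fold higher against a floor of 3 counts over the control group, and a single library held most of its reads (edgeR adjusted p = 0.0345). These calls held under 5 of 15 alternatives for Glyma03g09080 and 4 of 14 for Glyma03g07300. Glyma03g05220, which the study lists among WRKY genes, a family of plant transcription factors, rose to 78.7, 70.1 and 23.7 CPM, against 0.275, 3.87 and 13.7 CPM in the control (log2 3.24, SE 0.783, edgeR adjusted p = 0.0125). The count of 14 went to 6 without salt replicate 1, to 9, 8 and 7 without control replicate 1, 2 and 3, and to 0 with lane as a term (edgeR, 17 at an unadjusted p under 0.05, and DESeq2 without that term called 18). Over all genes tested, the fit with lane called only 33, so the loss was not particular to the members.

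At 12 hr of salt 13 members were called (7.18%), against 12.4% of all genes. Of these 12 rose (6.63%, against 7.18% of all genes) and 1 fell (0.552%, against 5.18%). Glyma03g12230 rose to 22.3, 15.1 and 15.5 CPM (log2 2.28, SE 0.378, edgeR adjusted p = 0.000942), above its 3 control libraries. It was called in 4 of the 6 comparisons, of which those at dehydration 1 hr and salt 1 hr held under 6 and 5 of 15 alternatives. Glyma03g05530 rose to 8.02, 28.9 and 17.5 CPM, against 1.1, 0.911 and 0.448 CPM in the control (log2 4.47, SE 0.752, edgeR adjusted p = 0.00104). Glyma03g15800 had 8.02, 22.0 and 8.33 CPM, with 313 counts in salt and 1 in the control, a ratio of 350.0 with an exact 95% counting interval of 62.3 to 13900 (log2 7.85, SE 1.35, edgeR adjusted p = 0.00121). These 3 kept their calls at 12 hr of salt under 15 of 15 alternatives. Glyma03g11990 fell to 2.38, 3.42 and 4.41 CPM, against 8.66, 14.6 and 6.15 CPM in the control (log2 -1.50, SE 0.472, edgeR adjusted p = 0.0368), a call that held under 7 of 15. The count went to 8 without salt replicate 1 or 2, to 7 without control replicate 1, and to 8 with lane as a term. Over all genes tested, the fit with lane called 2760.

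Salt and dehydration were also compared with each other at the same time. At 6 hr 25 of the 181 members differed (13.8%), against 14.7% of all genes, with 20 higher in salt (against 9.39% of all genes) and 5 lower in salt (against 5.27%). At 12 hr 22 members differed (12.2%), against 11.6% of all genes, with 17 higher in salt (against 7.73%) and 5 lower in salt (against 3.85%). At 6 hr all salt libraries were in lane 2, and no dehydration library was. Once lane was added to the model, an alternative chosen after the data were seen, the counts went to 0 members at 6 hr (edgeR, 22 at an unadjusted p under 0.05, and 0 of all genes called) and to 5 members at 12 hr (1393 of all genes called). At 1 hr 0 members were called, as for all genes (0%). At that time 17 members (9.39%) and 9.9% of all genes had an unadjusted p under 0.05 in edgeR.

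**Figure D4:**
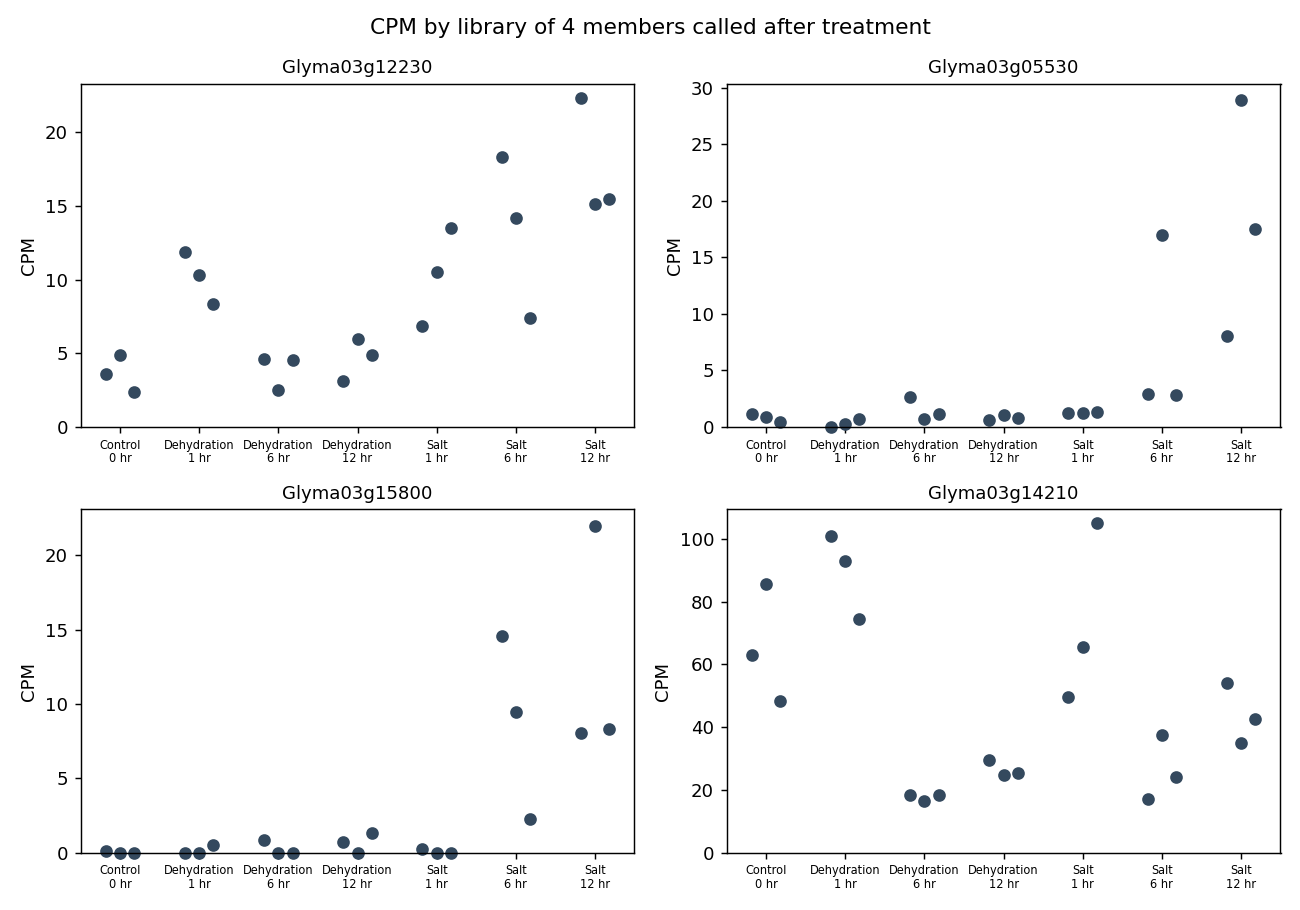
CPM of 4 members called after treatment, by group along the x axis on linear axes from 0, with 1 point per library. Glyma03g12230 lies higher in dehydration 1 hr and in salt than in the control, Glyma03g05530 and Glyma03g15800 in salt 6 and 12 hr, and Glyma03g14210 lies lower in dehydration 6 and 12 hr and in salt 6 hr.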

How the data were processed

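Roots of 21 samples were sequenced as single-end reads of 50 bp on 3 HiSeq lanes. The authors aligned the reads to the Glyma1.0 soybean assembly with GSNAP and kept reads that mapped to a single location. They deposited raw counts per gene model and a table of normalized signal, computed with DESeq 1.7.10 as counts divided by a size factor per library. The counting program and its use of strand are not given in the sources used here, so overlapping genes and near-identical copies are uncertain. Gene names were looked up in RefSeq's table of another assembly, which matched 0 IDs.

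Raw counts were fitted in R 4.3.3 with edgeR 4.0.16 (filterByExpr by group, TMM, glmQLFit robust, 1 model of the 7 groups), with Benjamini-Hochberg adjustment over 36691 genes. On simulated data for salt 6 hr, with 200 of 36691 genes changed 4-fold, 144 of the 200 were called, with 3 false calls. The changed genes were drawn from those with a mean above 2 CPM. The simulation used the fitted spread of each gene and held no effect of lane. It therefore does not give the rate of calls for genes of lower level, or of false calls where lane and treatment coincide. The normalized signal entered only alternatives with limma 3.58.1 on log2 values plus 1 or 0.1. Further alternatives used DESeq2 1.42.0, no filter, only the 6 libraries compared, lane, a replicate block, other limits for the states, and each library left out. The interval, its members, the lists and the rules were chosen with earlier results of these data known. The division into library sets and its alternatives were added after the values were seen. Named members are the on-off members, those called by smallest p in each comparison (up to 3 in each direction that do not overlap the control and 2 that do), the 5 with the highest mean CPM, and the edges of the interval. Glyma03g05220, Glyma03g06350 and the split genes were named after their values were seen. Lists of gene roles and tissue markers gave no value, since no ID matched.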

Additional observations from a re-analysis of the deposited data

Results flagged for a closer look

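Salt and dehydration were compared directly at each time for the members named above, with edgeR's quasi-likelihood test. The values below are log2 of salt over dehydration, for the named members that passed.

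At 6 hr they were 3.02 for Glyma03g09080 (edgeR adjusted p = 0.0015), 4.9 for Glyma03g05220 (adjusted p = 0.0014), 3.49 for Glyma03g05010 (adjusted p = 0.00344), 1.74 for Glyma03g12230 (adjusted p = 0.00407), 4.72 for Glyma03g15800 (adjusted p = 0.00506), 3.16 for Glyma03g07680 (adjusted p = 0.0127), 1.17 for Glyma03g05600 (adjusted p = 0.0274), 2.23 for Glyma03g05530 (adjusted p = 0.0291), 2.19 for Glyma03g11580 (adjusted p = 0.0486) and -1.05 for Glyma03g15020 (adjusted p = 0.00385). Glyma03g09080 had 36.1, 23.7 and 9.39 CPM in salt and 4.85, 2.41 and 1.04 CPM in dehydration. For Glyma03g07300 the fitted value was 9.5 (adjusted p = 0.0228), which rests on 150, 13 and 0 counts in salt and 0 in each dehydration library and is no measure of size. The same holds for the fitted 5.47 of Glyma03g12070 (adjusted p = 0.0204), with 62, 22 and 4 counts in salt and 2, 0 and 1 in dehydration. Of these, Glyma03g05010, Glyma03g11580 and Glyma03g12070 are on-off members. With lane as a term none of the 6 hr calls remained (edgeR, 22 of the 181 members at an unadjusted p under 0.05).

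At 12 hr they were 4.53 for Glyma03g05530 (edgeR adjusted p = 0.00196), 2.98 for Glyma03g09080 (adjusted p = 0.00299), 1.93 for Glyma03g12230 (adjusted p = 0.00361), 4.2 for Glyma03g15800 (adjusted p = 0.0117), 2.96 for Glyma03g05220 (adjusted p = 0.0225), 2.09 for Glyma03g05010 (adjusted p = 0.0488), 1.51 for Glyma03g05190 (adjusted p = 0.0154), 2.91 for Glyma03g07680 (adjusted p = 0.0326) and -1.05 for Glyma03g07460 (adjusted p = 0.0231). Glyma03g05190 had 24.5, 17.4 and 20.2 CPM in salt and 4.92, 6.5 and 10.6 CPM in dehydration. Glyma03g07460 was lower in salt at 12 hr, with 17.8, 17.4 and 25.6 CPM, against 32.0, 31.5 and 63.2 CPM in dehydration. All dehydration 12 hr libraries were in lane 4, while the salt 12 hr libraries were spread over the lanes. With lane as a term the members called at 12 hr went from 22 to 5 (edgeR), so most of these calls also depend on that choice.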

How the results depend on the processing

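The number of on-off members was 17 and stayed within 1.5 times that under 25 of 30 alternatives. It was 32 and 10 with a reference level of at least 2 and 8 CPM, 29 and 10 with off at or under 0.2 and 0.05 of it, and 11 with both states in at least 3 groups. With each library left out it was 12 to 17. The 17 genes were among those found with the wider limits. The 6-library set split 16 genes, 15 to 17 with each library left out, and 7 with a reference level of at least 4 CPM, all 7 of them members. The set was kept the same when a library was left out. A split gene could then be lost only by falling under the limit of 1 CPM, so these counts do not test the pattern.

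The counts of members called after treatment were unstable, and no named member changed direction under the alternatives run. In the order dehydration 1, 6 and 12 hr and salt 1, 6 and 12 hr, the counts with each library left out were 1 to 4, 1 to 4, 0 to 3, 1 to 3, 6 to 17 and 7 to 13. With lane as a term they were 1, 1, 1, 0, 0 and 8, and for salt against dehydration at 6 and 12 hr, an alternative added after the data were seen, 0 and 5 (edgeR). Over all genes tested, the same fits called 87, 319, 531, 0, 33 and 2760, and 0 and 1393 for salt against dehydration. DESeq2's Wald test gave 7, 8, 4, 7 and 21 for all but salt 6 hr, whose count was within 1.5 times. For dehydration 12 hr, 1 member was called with DESeq2's size factors, with no filter, with only the 6 libraries compared or without the on-off members. With only the 6 libraries compared, salt 1 hr gave 0 (edgeR, 22 at an unadjusted p under 0.05) and salt 6 hr gave 7. With limma and a pseudocount of 1, dehydration 6 hr gave 1 and salt 1 hr gave 2. With a pseudocount of 0.1, dehydration 6 and 12 hr gave 1 each, and salt 1 and 6 hr gave 2 and 8.

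The replicate block gave 1, 1, 1, 1 and 9 calls for dehydration 1, 6 and 12 hr and salt 1 and 6 hr, and 11 for salt 12 hr. The replicate numbers share no stated pairing. Deviations of same-numbered libraries from their group means had correlations from -0.448 to 0.42 (median -0.0569, 63 pairs), and 3 of 21 libraries correlated best with their own number, so the samples were taken to share only a number. Depth limits genes of few reads, since no count allows up to 0.78 CPM in the shallowest library.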
